A study of Mus musculus with 30 samples.

Results

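The genes described here are 10 genes of wound matrix and of contractile fibroblasts (myofibroblasts): Tnc, Fn1, Postn, Sparc, Thbs1, Lox, Acta2, Tagln, Vim and Pdgfrb. They were chosen by name, for their known roles, out of 18784 genes measured on the arrays, and each was read by 1 probe set. The samples were preputial glands, scent-making glands of sebaceous type under the skin near the mouse penis, which the labels name preputial gland duct. All mice were male, on the B6 background, and were placed at 6 weeks of age on a diet with benzo[a]pyrene (BaP), a carcinogenic combustion product, at about 12.5 mg/kg/day. The 3 genotypes were the Cyp1a1/1b1 double knockout (DKO, lacking both Cyp1a1 and Cyp1b1), the Cyp1a1 knockout (Cyp1a1 KO) and wild type (WT). Glands were taken at weeks 0, 4, 8, 12 and 16 of the diet, with 2 arrays, 1 mouse each, in every one of the 15 groups. Week 0 was the only time without BaP, so exposure and age increased together. The series title concerns squamous cell carcinoma forming in the duct.

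In a wound, and around many carcinomas, fibroblasts lay down a provisional matrix and take on contractile filaments. Fibronectin (Fn1) is an early scaffold of that matrix; tenascin C (Tnc), periostin (Postn), SPARC and thrombospondin 1 (Thbs1) are matricellular proteins, which bind matrix and cells without building the main fibres. Lysyl oxidase (Lox) crosslinks collagen and elastin. Smooth muscle actin (Acta2) and transgelin (Tagln) are filament proteins of smooth muscle and of myofibroblasts, vimentin (Vim) is the intermediate filament of mesenchymal cells, and Pdgfrb is a receptor for platelet-derived growth factor on fibroblasts and pericytes. Acta2 is also made by myoepithelial and other contractile epithelial cells, and Vim by white blood cells.

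Promoter windows of 5 of the 10 genes were in the RefSeq table (GRCm38.p6), 7 windows in all, each from 250 bases before an annotated start to 50 bases after it. A window is shown for Tnc and for Postn, the genes that rose in DKO glands at week 16, and for Acta2, the gene furthest below WT in DKO glands. Positions count 1 at the annotated start and -1 just before it. The Tnc window is the second of its 2 starts, at chr4:64046887-64047186 on the minus strand, with the Postn window, also the second of 2, at chr3:54360857-54361156 on the plus strand and the Acta2 window at chr19:34255324-34255623 on the minus strand. All are printed 5′ to 3′ along the gene, with motif matches in capitals.
Tnc: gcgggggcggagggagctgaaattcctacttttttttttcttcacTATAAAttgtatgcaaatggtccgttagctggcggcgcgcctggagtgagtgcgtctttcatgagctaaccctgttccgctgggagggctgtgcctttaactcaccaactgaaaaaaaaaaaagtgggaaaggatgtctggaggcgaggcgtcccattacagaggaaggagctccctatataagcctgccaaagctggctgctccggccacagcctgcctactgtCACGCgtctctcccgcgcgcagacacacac
Postn: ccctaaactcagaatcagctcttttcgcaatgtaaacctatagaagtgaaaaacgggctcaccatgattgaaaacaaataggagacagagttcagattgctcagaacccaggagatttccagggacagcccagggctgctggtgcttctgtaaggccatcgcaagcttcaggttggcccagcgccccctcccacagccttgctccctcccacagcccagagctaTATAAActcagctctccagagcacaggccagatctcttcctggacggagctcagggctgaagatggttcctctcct
Acta2: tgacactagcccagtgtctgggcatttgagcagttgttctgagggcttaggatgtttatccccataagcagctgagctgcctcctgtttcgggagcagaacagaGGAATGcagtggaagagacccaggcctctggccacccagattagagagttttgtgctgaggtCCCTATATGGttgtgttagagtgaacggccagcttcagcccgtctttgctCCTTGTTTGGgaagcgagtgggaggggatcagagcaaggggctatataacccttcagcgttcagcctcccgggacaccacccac
The motifs searched, on both strands, were the TATA box (TATAAA), the xenobiotic response element core of the aryl hydrocarbon receptor (CACGC), the AP-1 site, the MCAT element (CATTCC), and the CArG box of serum response factor, in its strict form and with 1 G or C in its A/T core. The Acta2 window held no strict CArG box but 2 of the relaxed form, at -84 to -75 and -34 to -25, and an MCAT element on the other strand at -146 to -141. Of 32851 windows of the same length, 8.5% held the relaxed CArG box, 1.63% the strict one and 14.7% MCAT. The Postn window held a TATA box at -26 to -21, a motif in 13.6% of windows. In the Tnc window TATAAA lay at -205 to -200 and the response element core, in 32.4% of windows, at 21 to 25. AP-1, found in 7.81% of windows, had no match in these 3. Of the windows not shown for these genes, that of Tnc held only TATAAA, at -126 to -121, and that of Postn held none of the motifs. Only the exact letters TATAAA were searched for the TATA box. Similar stretches near the annotated start in the Tnc and Acta2 windows are therefore left in small letters. The matches describe letters in the window and were not tested as binding sites.

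The arrays were not equal in range. The spread of log2 values over an array, as a standard deviation, was 1.15 to 1.42 on 9 arrays and 1.70 to 2.08 on the other 21. The 9 narrow-range arrays were 8 of the 10 DKO arrays and 1 Cyp1a1 KO array, replicate 2 of week 12; the DKO arrays of wider range were replicate 1 of week 0 and replicate 2 of week 12. The array medians were close, at 5.12 to 5.47. Label numbers divide the arrays in nearly the same way as genotype does, and a fit with the number range (1 to 20 or 22 to 33) as a block is called the number block below. Cyp1b1 signal was 7.48 to 10.57 on the DKO arrays, 6.66 to 8.82 on the Cyp1a1 KO arrays and 6.17 to 6.77 on the WT arrays. Cyp1a1 signal was 3.96 to 6.14 on DKO, 3.67 to 4.80 on Cyp1a1 KO and 4.26 to 4.74 on WT arrays, so no DKO array lay below WT for Cyp1b1, and the ranges overlapped for Cyp1a1. Where the probes lie relative to the deleted parts was not examined, so these signals do not check the labels, and DKO and Cyp1a1 KO mean here the glands labelled so. In whole glands, fewer cells of a type and less RNA per cell cannot be told apart.

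Tenascin C, which is made in healing wounds and tumour stroma, rose late in the DKO glands. Its log2 intensity in the DKO glands was 3.51 and 4.09 at week 0, 3.95 and 3.67 at week 4, 3.83 and 4.44 at week 8, 4.66 and 5.58 at week 12, and 6.28 and 5.81 at week 16. All 4 DKO arrays of weeks 12 and 16 lay above the other 6 DKO arrays. In the Cyp1a1 KO glands it was 4.40 and 3.72 at week 0, 3.42 and 3.71 at week 4, 3.34 and 3.25 at week 8, 3.54 and 5.82 at week 12, and 3.99 and 3.31 at week 16. In the WT glands it stayed between 3.23 and 4.03 on all 10 arrays, with a median of 3.59, all below the array medians. The deposited values carry no call of signal above background. Of the 26 arrays outside late DKO, 1 reached the late DKO range: Cyp1a1 KO week 12 replicate 2, the only narrow-range array of that genotype. Its partner in the group, at 3.54, did not.

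**Figure D1:**
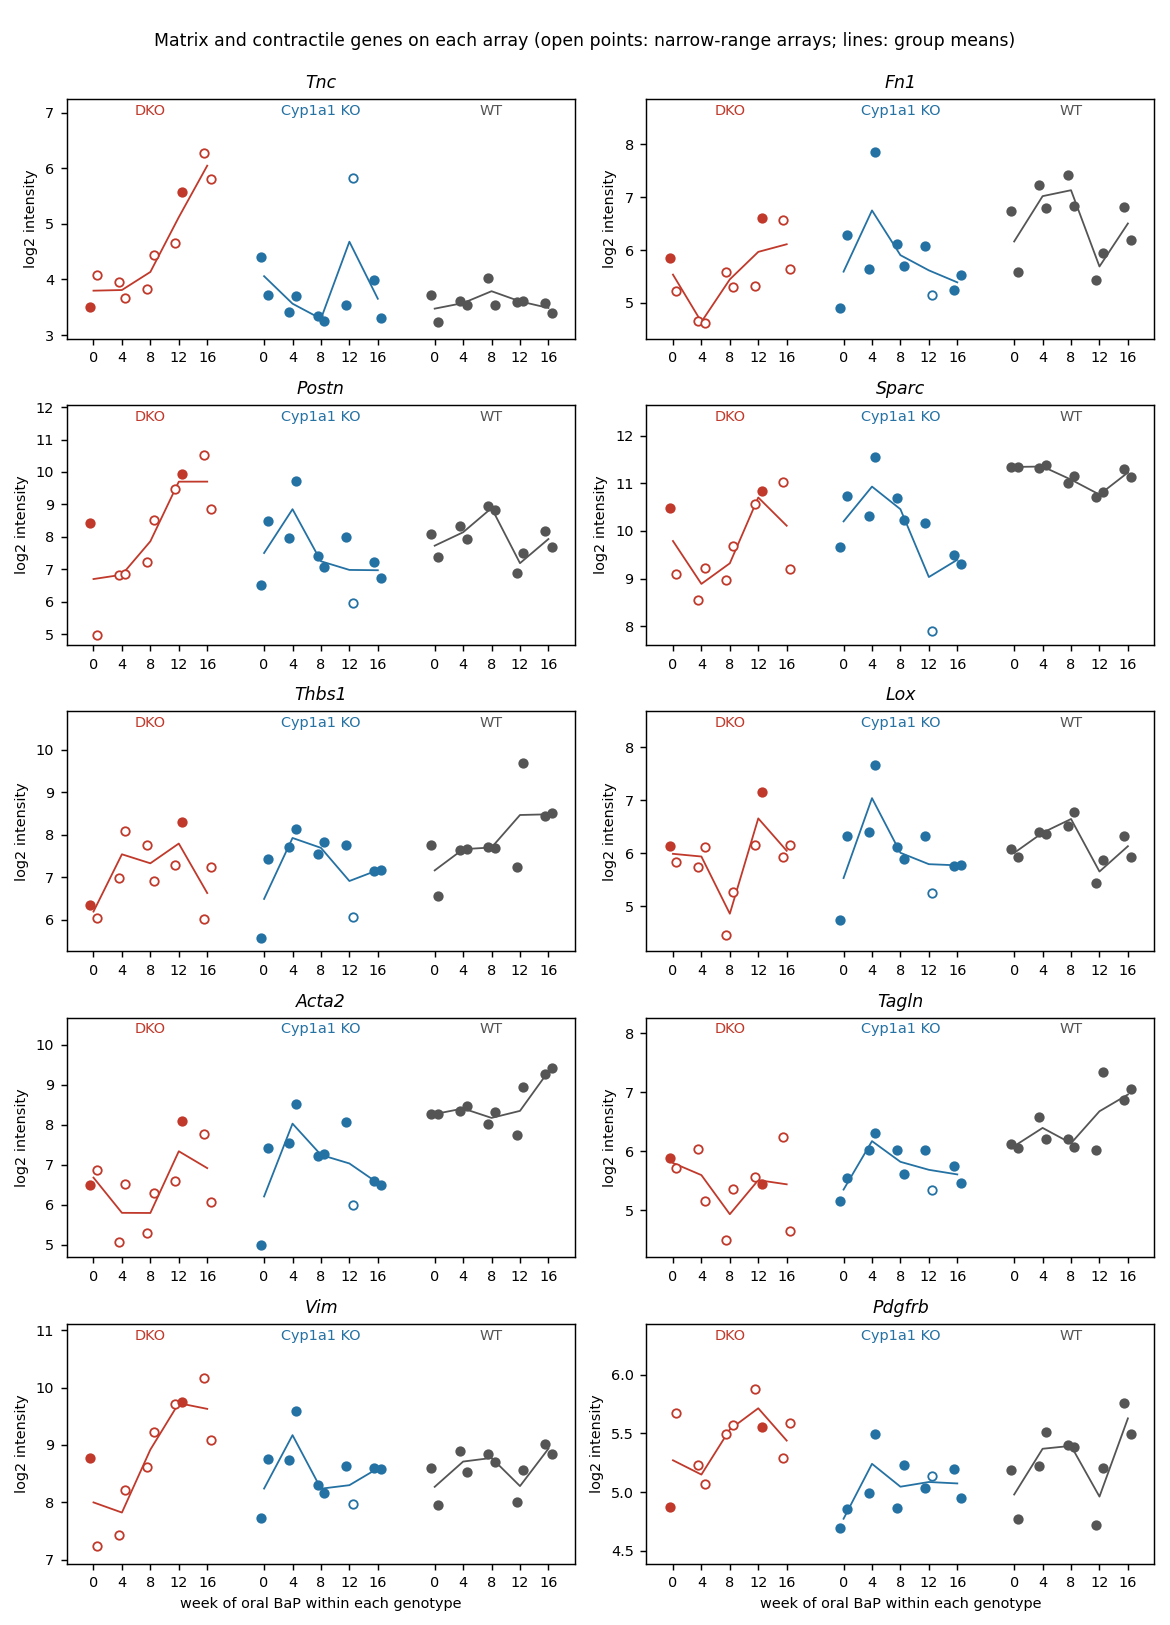
Log2 intensity (vertical axes) of each of the 10 genes on all 30 arrays by week of oral BaP, with DKO to the left, Cyp1a1 KO in the middle and WT to the right of each panel. Points are single arrays, open where the array had a narrow range, and lines join the means of 2 arrays. The group means of Tnc, Postn and Vim are highest in DKO glands at weeks 12 and 16, though single arrays of Cyp1a1 KO reach the range of the late DKO arrays. The medians of Acta2 and Sparc are highest in WT.

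Periostin, another matricellular protein of wounds and tumour stroma, had its highest values in the same glands. It measured 8.43 and 4.98 at week 0 in DKO, 6.82 and 6.86 at week 4, 7.22 and 8.51 at week 8, 9.47 and 9.94 at week 12, and 10.54 and 8.87 at week 16. The 2 DKO arrays of week 0 differed more from each other than the group means of weeks 8 and 16 did. Postn was also high in single glands of the other genotypes, up to 9.74 in Cyp1a1 KO week 4 replicate 2 and 8.95 in WT week 8 replicate 1. Vimentin followed a like course in DKO: 8.77 and 7.23 at week 0, 7.43 and 8.21 at week 4, 8.61 and 9.22 at week 8, 9.71 and 9.75 at week 12, and 10.17 and 9.09 at week 16. Its range was 7.73 to 9.60 in Cyp1a1 KO and 7.95 to 9.03 in WT. For Postn and for Vim, 2 of the 26 other arrays reached the late DKO range.

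At week 16 against week 0, 2 of the 10 genes rose in the DKO glands at an adjusted p under 0.05 in limma, a linear model with moderated variances, with Benjamini-Hochberg adjustment across the 18784 genes. In that comparison 4.04% of all genes were called. Tnc rose by 2.25 ± 0.50 on the log2 scale (model standard error, adjusted p = 0.0161) and Postn by 3.0 ± 0.85 (adjusted p = 0.0490), and for both genes the 2 arrays of week 16 lay above the 2 of week 0. Vim differed by 1.63 ± 0.47 (adjusted p = 0.0527). The other 7 genes differed by -0.36 (Tagln) to 0.58 (Fn1), with no call. The median over the 10 genes was 0.38, against 0.04 over all genes.

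**Figure D2:**
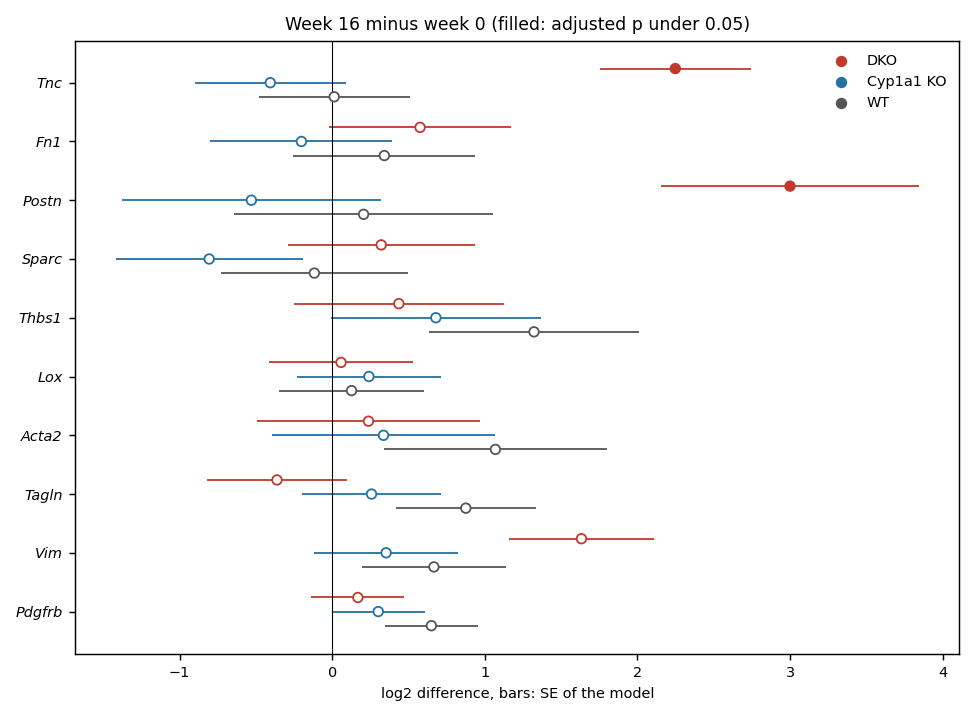
Log2 difference between week 16 and week 0 (horizontal axis) for each of the 10 genes in DKO, Cyp1a1 KO and WT glands, with bars for the standard error of the model (2 arrays a group). Filled points have an adjusted p under 0.05; only Tnc and Postn in DKO are filled.

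The calls rested on few arrays. Leaving out replicate 1 of week 0 (1.96, adjusted p = 0.0965) or of week 16 (2.02, adjusted p = 0.111) ended the Tnc call. Leaving out replicate 2 of week 0 (1.27, adjusted p = 0.270) or replicate 1 of week 16 (2.17, adjusted p = 0.314) ended that of Postn. With the number block Tnc differed by 1.53 (adjusted p = 0.0521) and Postn by 4.37 (adjusted p = 0.00162). With the replicate number as a block Postn was lost (adjusted p = 0.0562). In a fit of only the DKO groups of weeks 0 and 16 neither gene was called (adjusted p = 0.742 for Tnc and 0.852 for Postn).

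No gene of the 10 was called at week 16 against week 0 in Cyp1a1 KO or in WT glands, where 0% of all genes were called by limma. Unadjusted p was under 0.05 for 0 of the 10 in Cyp1a1 KO and 1 in WT, and for 217 and 227 of all genes. Tnc differed by -0.41 in Cyp1a1 KO (95% interval -1.43 to 0.62) and by 0.01 in WT (-1.02 to 1.04). The Postn difference was -0.53 in Cyp1a1 KO (-2.29 to 1.23) and 0.21 in WT (-1.55 to 1.96). In WT the 2 arrays of week 16 lay above those of week 0 for Acta2 (9.26 and 9.41 at week 16, 8.26 and 8.27 at week 0), without a call (1.07 ± 0.73, adjusted p = 1.00). The same held upward in WT for Thbs1 (1.32 ± 0.69), Tagln (0.87 ± 0.46), Vim (0.67 ± 0.47) and Pdgfrb (0.65 ± 0.31), the last being the 1 gene of unadjusted p under 0.05.

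Over all exposed weeks together (the mean of weeks 4 to 16 against week 0), none of the 10 genes was called in DKO (0.974% of all genes), Cyp1a1 KO (0%) or WT (0%) glands. Unadjusted p was under 0.05 for 4 of the 10 in DKO, and for 0 in each of the other genotypes. The DKO differences of those 4 were 1.82 ± 0.67 for Postn, 1.13 ± 0.54 for Thbs1, 1.03 ± 0.37 for Vim and 0.98 ± 0.39 for Tnc. Leaving out DKO week 0 replicate 1, or adding the number block, brought Postn and Vim under the threshold. The difference between genotypes in this change was not called for any of the 10: DKO against WT (0.0373% of all genes called), DKO against Cyp1a1 KO (0.0426%) or Cyp1a1 KO against WT (0%). For Tnc the change was larger in DKO than in Cyp1a1 KO by 1.24 ± 0.55 (adjusted p = 0.650) and than in WT by 0.84 ± 0.55 (adjusted p = 0.992). Without the 9 narrow-range arrays these DKO differences rest on 1 array of week 0 and 1 exposed array, so no weight is given to the Tnc calls made there.

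The week 16 change itself was also set between genotypes, in a comparison added after the values were seen. None of the 10 genes was called in DKO against WT (0.0319% of all genes) or in DKO against Cyp1a1 KO (0.016%), and 2, Tnc and Postn, had an unadjusted p under 0.05 in each. The Tnc change was larger in DKO than in WT by 2.24 ± 0.70 (adjusted p = 0.485) and than in Cyp1a1 KO by 2.65 ± 0.70 (adjusted p = 0.203). The Postn change was larger in DKO than in WT by 2.79 ± 1.20 (adjusted p = 0.606) and than in Cyp1a1 KO by 3.53 ± 1.20 (adjusted p = 0.368). Against Cyp1a1 KO, quantile normalization brought Tnc under the threshold and the number block brought Postn under it. The rises called in DKO at week 16 are thus not shown to differ from the changes in the other genotypes.

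Single earlier weeks against week 0 gave no call among the 10 genes. The share of all genes called was 0.522%, 0.953% and 0.554% at weeks 4, 8 and 12 in DKO, 0.00532%, 0% and 0% in Cyp1a1 KO, and 0%, 0% and 0.0106% in WT. At week 12 the DKO differences were 3.0 ± 0.85 for Postn (adjusted p = 0.160), 1.73 ± 0.47 for Vim (0.131) and 1.32 ± 0.50 for Tnc (0.372); without DKO week 0 replicate 1, Postn and Vim were called. A moderated F test of any difference among the 5 weeks called Tnc (adjusted p = 0.0281), Vim (0.0340) and Postn (0.0493) in DKO, where 3.98% of all genes were called. Without week 16 replicate 1 none of them was called, and without week 4 replicate 1 or week 12 replicate 2 Tnc alone was. The same test called none of the 10 in Cyp1a1 KO (0%) or WT (0.0106%). Without Cyp1a1 KO week 12 replicate 1, Tnc and Sparc were called in Cyp1a1 KO by this test and at week 12 against week 0.

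A comparison within the exposed weeks, added after the values were seen, set weeks 12 and 16 against weeks 4 and 8, so that 4 arrays stood on each side. In DKO 9 of the 10 genes were higher in the late weeks, with Thbs1 the exception (-0.22 ± 0.49), and the median difference was 1.15 against -0.01 over all genes. Tnc alone was called (1.61 ± 0.35, adjusted p = 0.0345), where 0.628% of all genes were. The largest difference was that of Postn, at 2.35 ± 0.60 (adjusted p = 0.0751), followed, after Tnc, by Acta2 at 1.33 ± 0.52 (0.257), Vim at 1.31 ± 0.33 (0.0764) and Sparc at 1.30 ± 0.43 (0.178). The DKO arrays of weeks 4 and 8 are all narrow-range, as are 3 of the 4 late ones. All 8 also carry label numbers above 20. The narrow-range arrays were not alike, however. Week 16 replicate 1 had the smallest spread of all the arrays, at 1.15. Its median r with the wider-range arrays was 0.66, against 0.77 to 0.84 on the other narrow-range DKO arrays of these weeks. The Tnc call was lost without replicate 1 or 2 of week 4, replicate 1 of week 8, replicate 2 of week 12 or replicate 1 of week 16, each left out alone. Without replicate 2 of week 16, Postn, Sparc and Vim were called beside Tnc.

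In Cyp1a1 KO glands the same difference was below 0 for 9 of the 10 genes, with a median of -0.76 against 0.11 over all genes, and Tnc (0.74 ± 0.35) the exception. In WT it was above 0 for 3 of the 10, Thbs1, Acta2 and Tagln, with a median of -0.13. No gene of the 10 was called in either (0.00532% of all genes in each). The high Tnc value in Cyp1a1 KO at week 12 is that of 1 array, and without its partner, replicate 1 of that week, Tnc, Sparc and Lox were called in that genotype. Set against each other, the late change was higher in DKO than in Cyp1a1 KO for all 10 genes (median 1.63), with no call (0.101% of all genes) and an unadjusted p under 0.05 for 6, the nearest being Sparc (2.78 ± 0.61, adjusted p = 0.0671) and Postn (3.42 ± 0.85, 0.0924). Leaving out Cyp1a1 KO week 12 replicate 1 turned 6 of these into calls: Fn1, Postn, Sparc, Lox, Acta2 and Vim. DKO against WT gave no call (0%) in limma and an unadjusted p under 0.05 for 6, with Postn at 3.30 ± 0.85 (adjusted p = 0.428) and Tnc at 1.75 ± 0.50 (0.498). These comparisons share the DKO arrays.

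**Figure D3:**
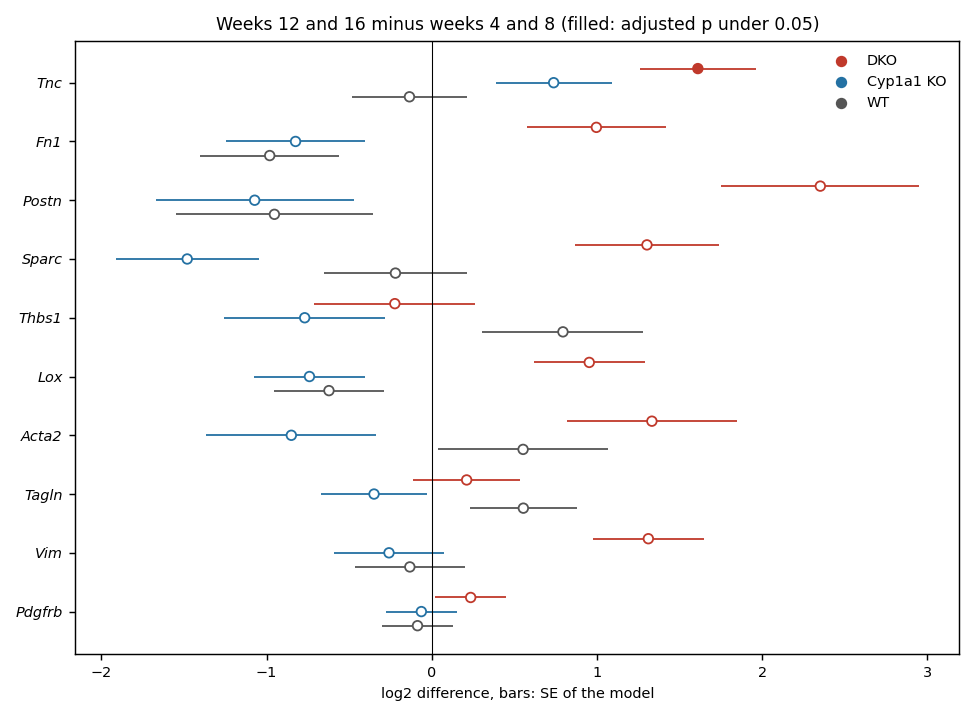
Log2 difference between weeks 12 and 16 and weeks 4 and 8 (horizontal axis) for the 10 genes in DKO, Cyp1a1 KO and WT glands, with bars for the standard error of the model (4 arrays on each side). The DKO points of Tnc (filled, adjusted p under 0.05), Postn, Vim, Sparc, Acta2, Fn1, Lox and Pdgfrb lie to the right of both other genotypes.

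Between genotypes during exposure, the contractile genes and SPARC were lower on the DKO than on the WT arrays, and Tnc was higher. All exposed DKO arrays but week 12 replicate 2 were narrow-range. The upper decile of log2 values was 6.89 to 7.43 on these and 8.16 to 8.47 on exposed WT arrays. The narrow Cyp1a1 KO array was lower than its partner for Sparc (7.91, 10.16) and Acta2 (6.00, 8.06), and higher for Tnc (5.82, 3.54). In the DKO week 0 pair Acta2 was higher on the narrow array (6.86, 6.49). The part of array range in these differences was not tested. Acta2 ranged from 5.06 to 8.09 on the 8 exposed DKO arrays (median 6.40), 6.00 to 8.51 in Cyp1a1 KO (median 7.24), and 7.75 to 9.41 in WT (median 8.41). The DKO arrays that reached the WT range were week 12 replicate 2, of wider range, at 8.09 and week 16 replicate 1 at 7.76. Tagln ranged from 4.50 to 6.24 in DKO, 5.35 to 6.32 in Cyp1a1 KO and 6.02 to 7.35 in WT. Sparc ranged from 8.55 to 11.03 in DKO, 7.91 to 11.54 in Cyp1a1 KO and 10.72 to 11.38 in WT. The WT glands were thus the most even for Sparc. Of the exposed arrays, 2 DKO arrays lay in the WT range (10.84 and 11.03), and in Cyp1a1 KO 1 array lay above it, at 11.54, and the other 7 below.

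Against WT, 5 of the 10 genes were called in DKO, a smaller share than the 71.5% of all genes called in that comparison. Acta2 was lower by 2.11 ± 0.36 (adjusted p = 4.44e-05), Sparc by 1.35 ± 0.31 (0.000601), Tagln by 1.17 ± 0.23 (0.000143) and Fn1 by 1.05 ± 0.30 (0.00379), and Tnc was higher by 1.16 ± 0.25 (0.000330). The median over the 10 genes was -0.54, and over all genes 0.19. Postn (0.49 ± 0.42), Vim (0.35 ± 0.24), Pdgfrb (0.12 ± 0.15), Lox (-0.33 ± 0.24) and Thbs1 (-0.76 ± 0.34) had no call.

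The calls changed in fits that handle the arrays in another way. Without the 9 narrow-range arrays a single exposed DKO array remained, of week 12. Against the WT arrays of that week Tnc was higher by 1.98, Tagln lower by 1.23, Acta2 lower by 0.26, and Fn1 and Sparc higher by 0.92 and 0.079. That fit changes the weeks and the number of arrays as well as their range. Set against the mean of the 8 exposed WT arrays, the same DKO array differed by 0.02 for Fn1 and -0.26 for Sparc. With the number block Tnc was at -0.27 (adjusted p = 0.832), Fn1 at -0.27 (0.894), Sparc at 0.46 (0.750), Acta2 at -1.27 (0.504) and Tagln at -0.74 (0.537), and Postn was the 1 gene called. Only 2 groups, DKO week 0 and Cyp1a1 KO week 12, have 1 array in each number range, and the block is estimated from those pairs alone. For Tnc the array of higher number exceeded its partner by 0.58 in the DKO group and by 2.28 in the Cyp1a1 KO group. Genotype and number range cannot be told apart on most of these arrays.

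**Figure D4:**
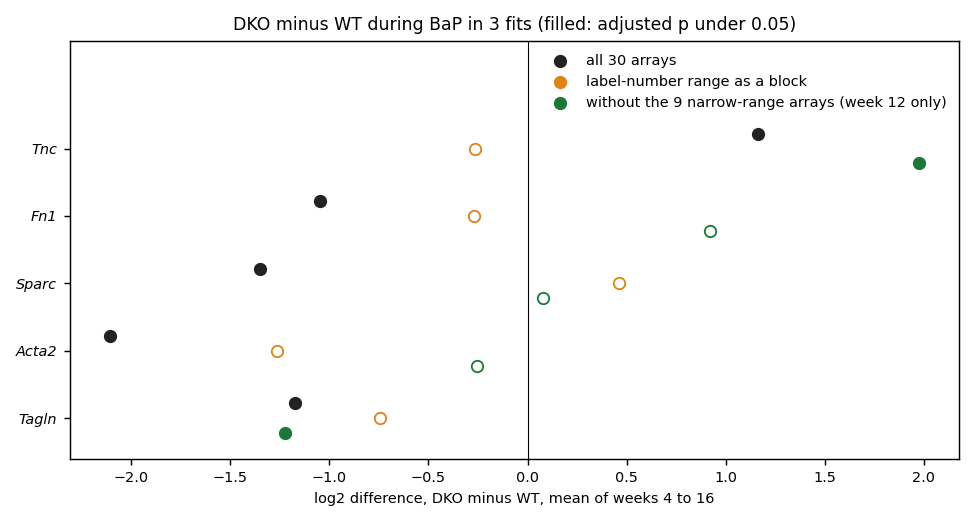
Log2 difference between DKO and WT glands over weeks 4 to 16 (horizontal axis) for the 5 genes called with all 30 arrays, in 3 fits: all arrays, the label-number range as a block, and without the 9 narrow-range arrays, where 1 DKO array of week 12 is left. Filled points have an adjusted p under 0.05; Fn1 and Sparc change side of 0 without the narrow-range arrays, and Tnc and Sparc do so with the block.

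Against Cyp1a1 KO, 2 of the 10 genes were higher in DKO during exposure, where 58.9% of all genes were called. Tnc differed by 0.98 ± 0.25 (adjusted p = 0.00237) and Postn by 1.01 ± 0.42 (0.0450). With the number block Tnc was at -0.27 (adjusted p = 0.826) and Postn at 3.40 (0.00937). Acta2 differed by -0.75 ± 0.36 (0.0804), Tagln by -0.45 ± 0.23 (0.0931) and Pdgfrb by 0.35 ± 0.15 (0.0547). Without DKO week 16 replicate 1 these last 3 were called as well, while Postn was not. The Postn call was kept in 11 of 27 other settings, and the other 16 kept its direction without the call. Among these were the fits without DKO week 8 replicate 2, DKO week 12 replicate 1 or Cyp1a1 KO week 8 replicate 1. Leaving out either Cyp1a1 KO array of week 16 ended it too.

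Of the Cyp1a1 KO arrays, 9 of 10 are among those of wider range. Their spreads, 1.76 to 1.97, began below the 1.91 to 2.08 of the WT arrays, so some lay below every WT array. The part of this in the Cyp1a1 KO levels was not tested. Against WT, none of the 10 genes was called during exposure (1.5% of all genes), although 4 had an unadjusted p under 0.05. Sparc differed by -1.15 ± 0.31 (adjusted p = 0.0610), Acta2 by -1.35 ± 0.36 (0.0625), Tagln by -0.72 ± 0.23 (0.134) and Fn1 by -0.67 ± 0.30 (0.357). Sparc, Acta2 and Tagln were called without the narrow-range arrays, without Cyp1a1 KO week 12 replicate 1, and in a fit of only the groups compared. The 10 genes had a median of -0.59 against 0.08 over all genes, beside -0.54 for DKO against WT, a comparison that shares the WT arrays.

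Before exposure no gene of the 10 was called between genotypes. The share of all genes called at week 0 was 3.9% for DKO against WT, 0% for DKO against Cyp1a1 KO and 0% for Cyp1a1 KO against WT. Acta2 at week 0 was 6.49 and 6.86 in DKO, 4.98 and 7.43 in Cyp1a1 KO, and 8.26 and 8.27 in WT, so both knockouts lay below WT without overlap. Its difference was -1.59 ± 0.73 for DKO against WT (adjusted p = 0.145) and -2.06 ± 0.73 for Cyp1a1 KO against WT (0.528). Sparc at week 0 was 10.48 and 9.10 in DKO, 9.66 and 10.74 in Cyp1a1 KO, and 11.35 and 11.34 in WT, again without overlap. No Cyp1a1 KO or WT array of week 0 is narrow-range, so leaving those arrays out kept the week 0 differences between these genotypes as they were; with the spread of that fit, Sparc and Acta2 were called. Without DKO week 0 replicate 1, Postn and Sparc were called in DKO against WT, and Postn against Cyp1a1 KO.

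Fibronectin, Lox, Thbs1 and Pdgfrb had no call over the weeks in any genotype, and their ranges overlapped between genotypes. Fn1 ranged over 4.62 to 6.61 in DKO, 4.89 to 7.85 in Cyp1a1 KO and 5.44 to 7.43 in WT. Lox spanned 4.45 to 7.15 in DKO, 4.74 to 7.67 in Cyp1a1 KO and 5.43 to 6.77 in WT. Thbs1 spanned 6.02 to 8.30 in DKO, 5.55 to 8.13 in Cyp1a1 KO and 6.56 to 9.70 in WT, where the highest array was week 12 replicate 2 and its partner stood at 7.23. The receptor Pdgfrb had the smallest range of the 10 over all 30 arrays, though not within WT, where Sparc and Tnc varied less. It spanned 4.87 to 5.88 in DKO, 4.69 to 5.49 in Cyp1a1 KO and 4.72 to 5.76 in WT.

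Single arrays carried many of the extremes. Cyp1a1 KO week 4 replicate 2 was the highest of the 10 Cyp1a1 KO arrays for 9 of the 10 genes, all but Tnc, and Cyp1a1 KO week 0 replicate 1 was the lowest for 7. In that week 4 group the marker list means also differed between the arrays. They were 4.65 and 6.44 for skeletal muscle, 6.66 and 7.65 for macrophages, and 7.21 and 7.90 for fibroblasts. Which array held the higher mean was not recorded. WT week 12 replicate 1 was the lowest WT array for 7 of the 10 genes. In DKO, week 16 replicate 1 was the highest array for 5 genes and week 12 replicate 2 for 4.

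Among the 21 arrays of wider range, some of the 10 genes varied together. Postn and Lox correlated at r = 0.91, Postn and Vim at 0.87, Lox and Vim at 0.86, Fn1 and Lox at 0.81, and Acta2 and Tagln at 0.81 (Pearson, no test, 19 of the 21 arrays being WT or Cyp1a1 KO). Tnc stood apart, its highest r with another of the 10 being 0.45, with Postn. Over all 30 arrays Postn and Vim kept r = 0.92, while Postn and Lox came to 0.59. Among about 3328 other genes with a mean above 7, those most like Postn were Samhd1 (r = 0.92) and Irf2 (0.88), and those most like Lox were Samhd1 (0.92) and Postn (0.91). Fn1 was most like Bgn (0.89) and Klf3 (0.86), Vim like Ifi207 (0.90) and Ecm1 (0.89), and Pdgfrb like Laptm5 (0.86) and Bgn (0.86). Bgn encodes the matrix proteoglycan biglycan. Sparc was most like Ctsa (0.89) and Tmem176b (0.88), Thbs1 like Pdlim5 (0.90) and Plk2 (0.88), and Tagln like Csrp1 (0.87) and Klk12 (0.87). For Tnc they were Usf2 (0.84) and Pof1b (0.80), but over all 30 arrays these r were 0.15 and 0.13.

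Acta2 was most like 2 keratin genes of basal and activated keratinocytes, Krt17 (r = 0.95) and Krt5 (r = 0.94). The correlation with Krt5 was 0.77 on the 10 WT arrays and 0.94 on the 9 Cyp1a1 KO arrays of wider range. On the 10 DKO arrays, of which 8 are narrow-range, it was 0.40. Spearman's rho was 0.67, 0.92 and 0.10. Leaving out the 2 arrays farthest from the median of Krt5 gave r = 0.91 on the 21 arrays, 0.62 in WT, 0.82 in Cyp1a1 KO and 0.01 in DKO. The pair was picked for its high r among many on the 21 arrays of wider range, of which 2 are DKO. No p is therefore given, and a difference between genotypes in this r was not tested. Krt5 was also lower in DKO than in WT glands during exposure, by 1.18 ± 0.21 (adjusted p = 6.46e-05). Whether its level bears on that of Acta2 was not tested.

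**Figure D5:**
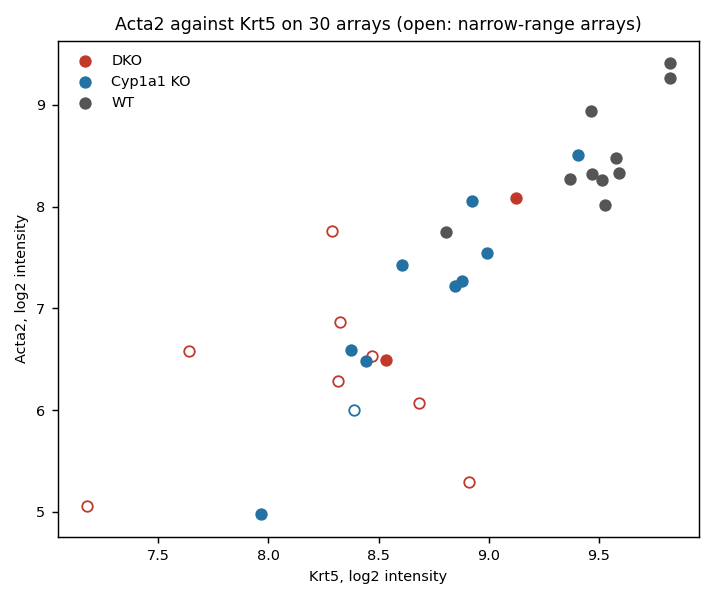
Acta2 log2 intensity (vertical axis) against that of Krt5 (horizontal axis) on the 30 arrays, coloured for DKO, Cyp1a1 KO and WT and open for the narrow-range arrays. The filled points are the 21 arrays of wider range, on which Krt5 was picked for its r with Acta2 (0.94). Over the 10 DKO arrays, of which 8 are narrow-range, r was 0.40.

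Markers of other cells moved in the same glands. The mean of the 7 neutrophil markers was 4.91, 5.27, 6.63, 7.19 and 6.92 in DKO at weeks 0, 4, 8, 12 and 16, against 4.49 to 5.05 in the Cyp1a1 KO groups and 4.44 to 4.83 in the WT groups. Of these 7 markers 3 rose at week 16, where 4.04% of all genes were called. The median difference of the list was 0.19 there and -0.06 in the late weeks against the early ones. The mean thus followed a few genes. From this list S100a8 and S100a9 rose by 6.68 ± 0.89 and 5.48 ± 1.11 at week 16 against week 0 in DKO (adjusted p = 0.000449 and 0.0113). The chemokine receptor Cxcr2 rose by 1.91 ± 0.51 (0.0404). Which cells made them was not tested. Of the 7 macrophage markers, the complement genes C1qc (1.75 ± 0.46, adjusted p = 0.0358) and C1qa (1.06 ± 0.28, 0.0399) rose. Cd163 went the other way without a call (-1.26 ± 0.60, 0.217), and the list's median was 0.71. The mean of these 7 was 6.06, 6.03, 6.49, 7.13 and 6.69 in DKO at weeks 0 to 16. It was 6.05 to 7.16 in the Cyp1a1 KO groups and 6.45 to 6.90 in the WT groups, so the genotypes overlapped. The mean of the 9 sebaceous markers was 7.86, 7.72, 6.95, 7.33 and 6.69 in DKO, with Awat2 and Plin2 called lower at week 16. Of the 5 suprabasal keratinocyte markers, Krt1 rose by 5.65 ± 0.49 (adjusted p = 8.96e-07) and Krt10 by 3.35 ± 0.39 (8.27e-05), while the other 3 were below 0 without a call and the list's median was -0.25. The part of these cells in the Tnc, Postn and Vim values was not tested.

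Of the 9 defining markers of fibroblasts, 1 was called in the comparisons of weeks within DKO given in this paragraph. Their mean over 9 genes was 6.95, 6.76, 6.68, 7.63 and 7.51 in DKO at weeks 0 to 16, between 6.70 and 7.55 in the Cyp1a1 KO groups and between 6.78 and 7.18 in the WT groups. None of the 9 was called at week 16 against week 0 in DKO (4.04% of all genes), where 8 were above 0 with a median of 0.53. In the late weeks against the early ones Thy1 was called (1.28 ± 0.25, adjusted p = 0.0247), where 0.628% of all genes were. In that late comparison Col3a1 differed by 0.99 ± 0.26 (adjusted p = 0.0933), Col1a2 by 0.78 ± 0.26 (0.178) and Col1a1 by 0.45 ± 0.27 (0.508), and all 9 were above 0, with a median of 0.78. Between genotypes during exposure, 4 of the 9 were called higher and 2 lower in DKO than in WT, where 71.5% of all genes were called. Against Cyp1a1 KO, 2 were called higher and 2 lower in DKO, where 58.9% of all genes were. The 10 smooth muscle and pericyte markers had means of 5.19 to 5.58 in the DKO groups, 5.14 to 5.31 in the Cyp1a1 KO groups and 4.91 to 5.31 in the WT groups, near the array medians, and none was called at week 16 in DKO. Cnn1, a smooth muscle calponin, differed there by 1.01 ± 0.43 (adjusted p = 0.169). Myh11, the smooth muscle myosin, was between 5.18 and 6.61 on all 30 arrays. In DKO against WT during exposure, where 71.5% of all genes were called, 4 of these 10 markers were higher and 1 lower, with a median of 0.12. Of the 25 smooth muscle and contractile genes of the list given next, 6 were called higher and 9 lower there.

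Companion lists of the same biology held at most 1 call each in DKO glands at week 16 against week 0, where 4.04% of all genes were called. Counts this small do not set the lists apart from that share. Of 22 measured genes of TGF-beta signalling, which drives matrix production, 1 rose, the ligand Tgfb1 (1.46 ± 0.33, adjusted p = 0.0180), and the list's median was 0.17. Fst, the activin antagonist follistatin, differed by 1.32 ± 0.38 (0.0540). Of 40 other non-collagen matrix and crosslinking genes, 1 rose, the hyaluronan synthase Has1 (0.92 ± 0.25, 0.0413), with a median of 0.36, and the fibrillin Fbn2 differed by 0.96 ± 0.31 (0.0777). Of 24 integrins and other matrix receptors none was called (median -0.19), Itgav being at -1.58 ± 0.56 (0.104). Of 25 smooth muscle and contractile genes 1 fell, the myosin light chain Myl6 (-3.51 ± 0.98, 0.0470), with a median of -0.01. Of 23 PDGF ligand and fibroblast genes none was called (median 0.22). Over weeks 4 to 16 against week 0 no gene of these 5 lists was called in DKO (0.974% of all genes), with Tgfb1 at 1.03 ± 0.26 (0.0547). In the late weeks against the early ones 2 genes of the fibroblast list were called, where 0.628% of all genes were. They were Thy1 and Pdpn, the podoplanin gene (1.66 ± 0.27, adjusted p = 0.00556).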

How the data were processed

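The authors deposited log2 intensities per probe set, made with RMA (background correction, quantile normalization and probe summary) per the submitters' processing notes, with no version; the sources used here do not give the annotation build. Per the labels' protocols, RNA from thawed glands was amplified by whole-transcriptome amplification (Ovation Pico WTA) before biotin labelling. Of 21212 probe sets, 18786 carried 1 gene symbol in the platform annotation, 6 carried several and 2420 were not listed. The probe set with the highest mean stood for a gene, which gave 18784 genes, with no low-value filter. Gene positions, where printed, are of RefSeq GRCm38.p6.

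All 30 arrays entered 1 linear model with 15 group means, fitted in limma 3.58.1 under R 4.3.3 (15 residual and 6.91 prior degrees of freedom). Tests were two-sided, given Benjamini-Hochberg adjustment across the genes of a comparison, and called under 0.05. Errors are standard errors of the model, and intervals are 95%. The model gives each gene 1 spread for all groups, and 2 arrays per group limit the precision. Replicate numbers did not pair the samples: over 105 pairs of groups the correlation of same-numbered deviations ran from -0.55 to 0.67, with 16 over 0.1. No 2 arrays held identical values.

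The 10 genes, the companion and marker lists and the tests were chosen with earlier results of these data known; the comparison of weeks 12 and 16 with weeks 4 and 8, and that of the week 16 change between genotypes, were added after the values were seen. All 10 genes are named. From each list, up to 3 genes with the smallest adjusted p in the DKO change over weeks 4 to 16 and at week 16 could be named, and for each of the 10 genes the 2 others of highest Pearson r over the 21 arrays with a standard deviation of at least 1.5. Col1a1, Col3a1 and Myh11 are named outside this rule, after their values were seen. The fit was tested on simulated data. The other settings are given in the closing section.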

Additional observations from a re-analysis of the deposited data

How the results depend on the processing

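The 10 calls on single genes in comparisons of group means gave 226 values under other settings. Of these 178 kept their direction and their call, 42 kept the direction without the call, and 6 reversed: Tnc in DKO against WT with the number block (-0.27), Fn1 there without the narrow-range arrays (0.92), Sparc there with the number block (0.46) and without the narrow-range arrays (0.079), and Tnc in DKO against Cyp1a1 KO with the number block (-0.27) and among label numbers 22 to 33 (-0.70). The cause was not tested. Tnc could not be tested under the low-value filter (above 6 on 2 arrays).

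Counts of the 10 genes called moved as follows. For DKO weeks 4 to 16 against week 0 (0), quantile normalization gave 1, the number block 2 and leaving out the narrow-range arrays 1; leaving out 1 array gave 0 to 2. For DKO week 16 against week 0 (2), median centring gave 1, array weights 0, the replicate block 1, label numbers 22 to 33 alone 1 and only the groups compared 0; leaving out 1 array gave 0 to 3. For DKO against WT during exposure (5) the number block gave 1, and leaving out 1 array gave 5 to 6. For DKO against Cyp1a1 KO (2), the low-value filter gave 1, array weights 1, the number block 1, numbers 22 to 33 alone 0 and no narrow-range arrays 1; leaving out 1 array gave 1 to 4. For Cyp1a1 KO against WT (0) the low-value filter gave 2, array weights 3, the number block 1, no narrow-range arrays 3 and only the groups compared 3; leaving out 1 array gave 0 to 3. At week 0, DKO against WT gave 0 to 2 and DKO against Cyp1a1 KO 0 to 1 with 1 array left out, and Cyp1a1 KO against WT gave 2 without the narrow-range arrays. The change in DKO against that in WT, and against that in Cyp1a1 KO, gave 1 each (Tnc) without those arrays, where DKO has 1 array on each side.

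For the late against the early weeks in DKO (1), quantile normalization gave 4, the low-value filter 0, array weights 0, the number block 4, numbers 22 to 33 alone 0 and only the groups compared 0; leaving out 1 array gave 0 to 4. In Cyp1a1 KO leaving out 1 array gave 0 to 3, and in WT array weights gave 3. The late change in DKO against WT gave 1 with the number block; against Cyp1a1 KO it gave 1 with quantile normalization and 1 with the number block, and 0 to 6 with 1 array left out. For single weeks against week 0 (0 each), DKO week 8 gave 1 with the number block. DKO week 12 gave 1 with quantile normalization, 3 with the number block, 1 among numbers 22 to 33 and 1 without the narrow-range arrays, and 0 to 2 with 1 array left out; Cyp1a1 KO week 12 gave 0 to 2 with 1 array left out. The week 16 change in DKO against that in Cyp1a1 KO (0) gave 1 with quantile normalization and 1 with the number block. The F test over the weeks in DKO (3) gave 0 with array weights, 1 among numbers 22 to 33, 0 with only the groups compared, 2 (Tnc and Vim) with the replicate block and 0 to 3 with 1 array left out. In Cyp1a1 KO (0) it gave 3 with array weights and 0 to 2 with 1 array left out, and in WT (0) 3 with array weights. It was not run for DKO without the narrow-range arrays, where weeks are missing. The replicate block changed no other call.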
